A study of Mus musculus with 22 samples.

Results

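The 10 genes described here mark the tissue that surrounds the mammary epithelium. Adipoq, Fabp4, Plin1, Cidec, Car3 and Lpl are genes of fat cells, and Acta1, Ckm, Myh4 and Mb are genes of skeletal muscle fibres. They were chosen by name as a gauge of host tissue in allografts and cancers, and all 10 were present among the 23993 gene symbols of the first deposited table and among the 23490 of the second.

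The study grew mouse mammary cells in a pair of ways, conditional reprogramming (CRC in the labels) and a medium named EpiC, transplanted such cells, and sequenced poly(A) RNA of cultures, allografts and cancers. The first table held 6 cultures (3 CRC and 3 EpiC) and 10 allografts (7 from CRC cells and 3 from EpiC cells). The second held 2 primary cancers and 4 cultures of those cancers, 1 CRC and 1 EpiC culture from each. Levels are FPKM, that is fragments scaled to transcript length and library size.

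All donor mice were C57Bl/6 nulliparous females, with no age given. Every group carried 1 mutant Trp53 allele and MMTV-Cre, a transgene whose mammary tumour virus promoter drives Cre mainly in mammary epithelium. To this the 3 genotypes added a Tet-op-CYP19A1 transgene with MMTV-rtTA (called CYP19A1 below), 1 floxed Brca1 allele (Brca1het) or 2 floxed Brca1 alleles (Brca1hom). In the first table, culture 1 of each medium was CYP19A1, culture 2 Brca1het and culture 3 Brca1hom. CRC allograft 6C and EpiC allograft 7B were CYP19A1, CRC allografts 10B, 10C and 11C and EpiC allografts 4C and 5A were Brca1het, and CRC allografts 1, 2 and 12 were Brca1hom. The cancers and their cultures were all Brca1het. The allografts were raised in the mammary gland of NU (NCr)-Foxn1nu mice, a nude strain that lacks a thymus but keeps its own fat, muscle, vessels and macrophages. No label states that replicate libraries were from different animals or cultures. The p-values below therefore reflect only how these samples vary, and that variation may be technical.

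Mammary ducts grow inside a pad of white fat, which lies under the skin and over the muscle of the body wall. White fat cells store triglyceride in a droplet coated by perilipin and CIDE proteins, take up fatty acids that lipoprotein lipase frees from blood lipids, and secrete adiponectin. Muscle fibres are multinucleate cells filled with actin and myosin filaments, with creatine kinase to buffer ATP and, in oxidative fibres, myoglobin to hold oxygen. Neither cell type is an epithelial cell, so these genes are often read as a sign of adjacent tissue in a sample.

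The upstream sequences of 4 of the genes are shown because in the allografts most of the genes moved as 2 sets, fat and muscle, as described below. RefSeq promoter entries (build GRCm38.p6) matched 7 of the 10 genes, and Fabp4, Car3 and Lpl were not matched. Each line gives the 250 bases before the annotated start, in the direction of transcription. Capitals mark a CArG box (the site of serum response factor), the E-box CAGCTG, the promoter motif TATAAA and the box CCAAT. Both strands were searched, so that TTTATA is the promoter motif read on the opposite strand and ATTGG is the CCAAT box read there. None of the matches shown overlap.
Acta1: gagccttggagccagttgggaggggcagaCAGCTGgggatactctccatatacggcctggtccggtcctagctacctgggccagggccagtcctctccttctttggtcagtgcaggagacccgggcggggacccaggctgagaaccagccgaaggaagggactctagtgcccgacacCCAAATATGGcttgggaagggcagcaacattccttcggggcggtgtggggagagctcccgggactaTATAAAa
Myh4: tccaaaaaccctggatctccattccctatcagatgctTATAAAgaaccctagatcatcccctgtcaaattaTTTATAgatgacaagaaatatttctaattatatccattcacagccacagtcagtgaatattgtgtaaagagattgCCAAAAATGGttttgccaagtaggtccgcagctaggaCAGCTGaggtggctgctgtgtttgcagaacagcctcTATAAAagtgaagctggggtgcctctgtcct
Ckm: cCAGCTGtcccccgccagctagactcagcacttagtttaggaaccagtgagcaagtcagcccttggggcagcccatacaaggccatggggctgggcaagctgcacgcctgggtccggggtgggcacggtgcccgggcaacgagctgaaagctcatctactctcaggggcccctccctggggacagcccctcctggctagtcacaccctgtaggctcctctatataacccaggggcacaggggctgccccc
Adipoq: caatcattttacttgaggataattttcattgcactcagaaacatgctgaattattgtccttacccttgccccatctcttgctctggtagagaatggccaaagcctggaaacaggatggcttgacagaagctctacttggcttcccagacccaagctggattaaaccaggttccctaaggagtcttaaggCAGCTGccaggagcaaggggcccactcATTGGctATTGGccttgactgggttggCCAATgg
These windows are chr8:123894776-123895025 on the minus strand for Acta1, and on the plus strand chr11:67237562-67237811 for Myh4, chr7:19410844-19411093 for Ckm and chr16:23146286-23146535 for Adipoq. Acta1 and Myh4 each held 1 CArG box, which was found in 1.47% of the 32851 RefSeq promoter windows of the same length. The E-box CAGCTG was found once in each of the 4 and in 13.0% of all windows. The 4 were picked from the matched genes. Of those not shown, Plin1 held none of the motifs, and Cidec and Mb held CAGCTG in some of their entries only. Adipoq held 3 CCAAT boxes, a motif of 33.8% of windows, and Myh4 held 3 TATAAA motifs, which 12.4% of windows contained. These matches describe the letters only and show no binding.

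Over the whole first table, the sum of FPKM per library was 466441 to 825216, and 11164 to 11784 genes reached 1 FPKM. In the second table the sum was 607519 to 710511, with 1 exception (the CRC culture of cancer 2, at 1615930), and a 0 there may be a missing estimate, so it is written as listed at 0. Among 120 pairs of libraries in the first table and 15 in the second none was identical. The mammary epithelial genes Epcam and Krt8 were at 0.208 and 0.275 FPKM in EpiC culture 3, whereas the other 5 cultures held 253 to 454 FPKM of Epcam and 205 to 725 of Krt8. That library therefore goes against its label as a mammary epithelial culture, and values without it are given where the result rests on it most. Leaving it out changed no call among the 9 tested genes between allografts and cultures, between the kinds of culture or in the interaction. Brca1 was at 2.02 to 5.61 FPKM in all 16 libraries of the first table, a gene level that does not show whether a floxed exon was lost.

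Every fat and muscle gene was also above 0 in the cultures, at levels that overlapped with those of the allografts. The labels give the same extraction, from homogenised mammary glands, for cultures as for the other samples, and the source of these transcripts in the cultures was not tested. None of the 10 genes separated the 6 cultures from the 10 allografts without overlap, whereas 8.87% of all genes whose mean reached 1 FPKM did. Of the 9 genes whose mean reached 1 FPKM, 0 were called higher in allografts and 1, Lpl, was called lower (limma with Benjamini-Hochberg adjustment, threshold 0.05), and 3 had an unadjusted p under that threshold. Of all 12325 genes tested, 34.5% were called in this comparison, 2238 higher and 2019 lower. The differences of the 9 genes were positive for 2 and negative for 7, beside a median of 0.01 on the log2 scale over all genes tested.

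Endothelial and macrophage genes gave a different picture in the same libraries, while other lists of cells outside the epithelium were mixed. All 9 tested endothelial genes and all 10 tested macrophage genes rose in allografts, with median log2 differences of 3.18 and 7.82. Pecam1, an adhesion molecule of vessel walls, rose by 4.34 (SE 0.29, limma adjusted p = 5.37e-08), and was at 11.1 to 50.9 FPKM in allografts against 0.0732 to 0.603 in cultures. Lyz2, the lysozyme of macrophages, was at 1205 to 7658 FPKM in allografts and at most 1.28 in cultures. Of 10 tested fibroblast genes 5 rose and 1 fell (median 2.08), and of 9 smooth muscle and pericyte genes 4 rose and 1 fell (median 0.30). The 1 tested lymphocyte gene rose (2.10), and of 2 tested Schwann and nerve genes 0 were called (median −0.15). Of the 8 mammary epithelial genes 6 fell, with a median of −4.29. So the libraries labelled allografts held many more endothelial and macrophage transcripts than the cultures, while the fat and muscle transcripts did not follow them.

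**Figure D1:**
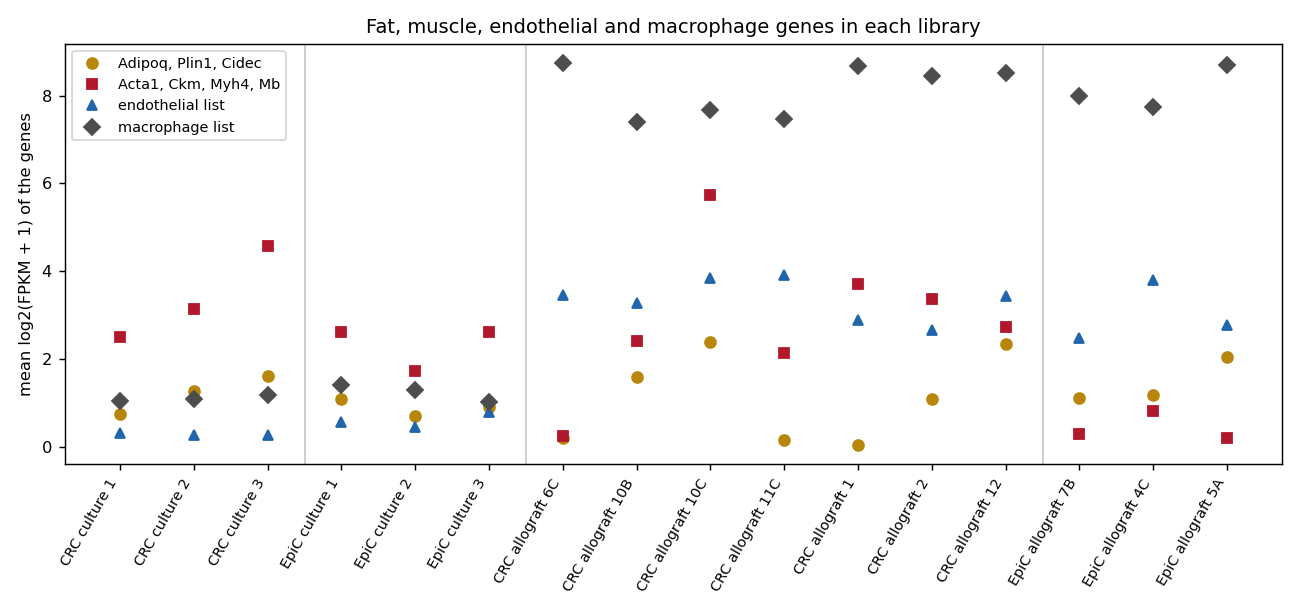
Mean log2(FPKM + 1) of Adipoq, Plin1 and Cidec (circles), of Acta1, Ckm, Myh4 and Mb (squares), of the endothelial list (triangles) and of the macrophage list (diamonds) in each of the 16 libraries of the first table, with grey lines between groups. The macrophage mean is 1.01 to 1.40 in cultures and 7.39 to 8.74 in allografts, whereas the muscle mean is 1.71 to 4.57 in cultures and 0.19 to 5.74 in allografts.

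Adipoq encodes adiponectin, a hormone secreted by fat cells. It was at 1.11, 2.78 and 4.17 FPKM in CRC cultures 1, 2 and 3 and at 1.93, 0.935 and 1.53 in EpiC cultures 1, 2 and 3. The 7 CRC allografts had a lowest value of 0.0434, a median of 2.42 and a highest of 8.40 FPKM, and EpiC allografts 7B, 4C and 5A had 2.07, 2.73 and 7.08. The cultures thus lay inside the range of the allografts, with CRC allografts 1, 11C and 6C below every culture and 10C, 12 and EpiC allograft 5A above every culture. The difference between allografts and cultures was 0.17 (SE 0.53, limma adjusted p = 0.834), and it was negative, at −0.11, with a pseudocount of 0.1 in place of 1.

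Cidec and Plin1 coat the lipid droplet; Cidec drives the fusion of droplets and Plin1 guards them from lipases. Cidec was at 0.719, 1.43 and 1.96 FPKM in the CRC cultures and at 0.986, 0.688 and 0.990 in the EpiC cultures. In CRC allografts it ran from 0.0300 over a median of 1.32 to 9.03, and EpiC allografts 7B, 4C and 5A had 2.05, 1.85 and 5.55. The same 3 CRC allografts (1, 11C and 6C) were below every culture, and the difference between states was 0.47 (SE 0.51, limma adjusted p = 0.495). Plin1 stayed under 1 FPKM in all 16 libraries and was not tested. It reached 0.857 FPKM in CRC culture 3, was between 0.292 and 0.642 in the other cultures, and in allografts had a highest value of 0.652 and was at 0 in CRC allografts 6C and 11C.

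Car3, a carbonic anhydrase that is abundant in fat and also made in muscle, was at 7.46, 15.1 and 26.1 FPKM in the CRC cultures and at 12.2, 7.505 and 9.003 in the EpiC cultures. The CRC allografts spanned 0.605 to 43.5 with a median of 13.0, and EpiC allografts 7B, 4C and 5A had 1.87, 15.6 and 15.7. All cultures lay within that span, and the difference was −0.68 (SE 0.68, limma adjusted p = 0.466).

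Fabp4, a fatty acid carrier of fat cells that endothelial cells and macrophages also make, was the most abundant of the 6 fat genes per length. It was at 43.9, 123 and 47.3 FPKM in the CRC cultures and at 141, 97.7 and 362 in the EpiC cultures. CRC allografts had 21.5 at the lowest, 119 at the median and 150 at the highest, and EpiC allografts 7B, 4C and 5A had 67.0, 144 and 131. The highest of all 16 values was that of EpiC culture 3, and the lowest that of CRC allograft 1. The difference between states was −0.12 (SE 0.45, limma adjusted p = 0.858), and without EpiC culture 3 it was 0.24 (adjusted p = 0.625). In the cultures Fabp4 was present while the endothelial Pecam1 and Cdh5 were at most 0.603 and 0.148 FPKM and the macrophage genes Lyz2 and C1qa at most 1.28 and 0.324. Other genes of those lists were present: the summed endothelial level of 10 genes was 2.09 to 27.8 FPKM in cultures, with Eng at up to 23.1, and the macrophage level of 10 genes was 37.7 to 86.4, with Cd14 at up to 67.7. Their part in the Fabp4 level was not tested.

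Lpl, the lipase that frees fatty acids from blood lipoproteins and that macrophages also make, was the only one of the 9 tested genes to be called. It was at 12.8, 5.15 and 4.47 FPKM in the CRC cultures and at 22.6, 18.8 and 86.9 in the EpiC cultures. CRC allografts ran from 0.564 over 3.19 to 6.93, and EpiC allografts 7B, 4C and 5A had 2.47, 5.79 and 3.37. The EpiC cultures and CRC culture 1 were above every allograft, whereas CRC cultures 2 and 3 overlapped with them. Lpl fell by 1.81 on the log2(FPKM + 1) scale in allografts (SE 0.52, limma adjusted p = 0.0144), a fold of 3.52. Without EpiC culture 3 the difference was −1.49 (adjusted p = 0.0247), and without CRC culture 1 it no longer passed, at −1.62 (adjusted p = 0.0503). Fewer cells of a type and less RNA per cell cannot be told apart in these bulk samples, here and in every comparison that follows.

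**Figure D2:**
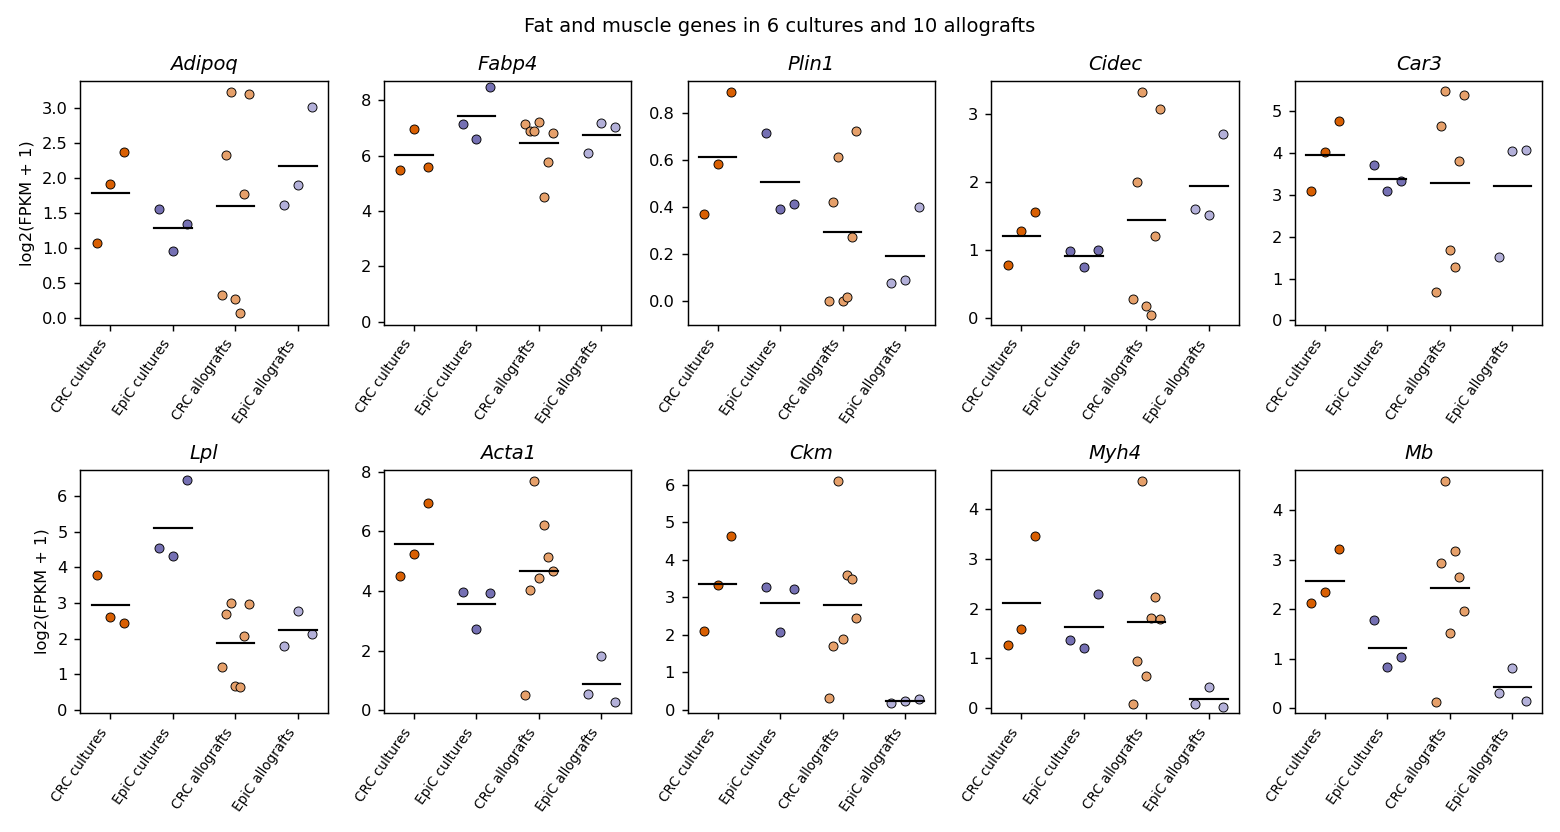
Level of each of the 10 genes, as log2(FPKM + 1), in the 3 CRC cultures, 3 EpiC cultures, 7 CRC allografts and 3 EpiC allografts; each point is a library and each bar the mean of its group. In every panel the points of cultures and allografts overlap, and the highest point of each muscle gene is CRC allograft 10C.

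Among 25 other fat genes of a list chosen by function, 16 were tested, 2 rose and 4 fell in allografts, with a median difference of −0.24. The largest changes were falls in Orm1, an acute-phase plasma protein (−3.19, limma adjusted p = 9.11e-05), Sncg, a synuclein found in fat and nerve (−3.05, adjusted p = 0.00115), and Scd1, the desaturase that makes monounsaturated fatty acids (−2.12, adjusted p = 0.00564). Mammary epithelium also makes lipid, so a lipid gene such as Scd1 is not one of fat cells alone. Orm1 and Sncg are not limited to fat cells either, and the cells behind these falls were not tested. Of 8 brown fat genes 3 were tested and 1 fell, namely Cidea, a droplet protein (−1.36, limma adjusted p = 0.00983).

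Acta1, the actin of skeletal muscle filaments, was the most abundant of the 4 muscle genes in each of the 16 libraries. It was at 21.9, 37.2 and 124 FPKM in the CRC cultures and at 14.7, 5.68 and 14.3 in the EpiC cultures. CRC allografts had 0.425 at the lowest, 24.4 at the median and 207 at the highest, while EpiC allografts 7B, 4C and 5A had 0.461, 2.57 and 0.225. All 6 cultures were above CRC allograft 6C and all 3 EpiC allografts, and CRC allograft 10C was above every other library. The difference between states was −1.74 (SE 0.72, limma adjusted p = 0.0753). Acta1 is nearly identical to other actin genes, among them Acta2 of smooth muscle, so its level is uncertain where the authors' counting shared fragments; Acta2 was at 6.35 to 455 FPKM in the same 16 libraries.

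Ckm, the creatine kinase of muscle, was at 3.24, 9.02 and 23.9 FPKM in the CRC cultures and at 8.67, 3.16 and 8.38 in the EpiC cultures. Across CRC allografts it ran from 0.235 over 4.48 to 67.7, and EpiC allografts 7B, 4C and 5A had 0.131, 0.166 and 0.208. All 6 cultures were above 6 of the 10 allografts, and CRC allografts 10C, 1 and 2 were the only allografts above 10 FPKM. The difference was −1.47 (SE 0.67, limma adjusted p = 0.103).

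Myh4, the myosin heavy chain of the fastest fibres, was at 1.42, 2.03 and 10.03 FPKM in the CRC cultures and at 1.58, 1.33 and 3.87 in the EpiC cultures. CRC allografts had 0.0581, 2.47 and 22.6 FPKM as lowest, median and highest values, and all 3 EpiC allografts were under 1 FPKM (0.0587, 0.336 and 0.0241). Mb, the oxygen store myoglobin, was at 3.37, 4.10 and 8.32 FPKM in the CRC cultures and at 2.47, 0.795 and 1.06 in the EpiC cultures. Its CRC allografts ran from 0.0854 over 5.30 to 23.2, and EpiC allografts 7B, 4C and 5A had 0.239, 0.750 and 0.109. For both genes the EpiC allografts were below all 6 cultures, and CRC allografts lay on both sides of them. The differences between states were −0.85 for Myh4 (limma adjusted p = 0.218) and −0.50 for Mb (adjusted p = 0.465).

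Whether muscle genes passed the threshold turned on a single allograft. CRC allograft 10C had the highest value of all 4, and without it 4 of the 9 tested genes were called lower in allografts, Lpl and 3 muscle genes. Over all 12325 genes 34.5% were called with 10C kept. Leaving out each library in turn, 10C among them, gave 2969 to 4706 calls over all genes. Whether 4 of 9 exceeds the share over all genes without 10C was not tested. Without 10C Acta1 was at −1.97 (limma adjusted p = 0.0113), Ckm at −1.73 (adjusted p = 0.00205) and Myh4 at −1.07 (adjusted p = 0.00118), each in the direction it had with 10C kept. With 10C kept and a pseudocount of 0.1, Ckm was called too (−2.47, adjusted p = 0.0389).

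In the wider muscle lists few genes were called. Of 10 fast fibre genes 9 were tested and 1 fell, Pvalb, the calcium buffer of fast fibres (−1.42, limma adjusted p = 0.0220). Of 7 slow fibre genes 3 were tested and 1 rose, Tnnt1, the slow troponin T (0.86, adjusted p = 0.0219). Of 18 shared sarcomere and metabolism genes 8 were tested: Des, the filament protein desmin, rose by 1.59 (adjusted p = 0.00697), and Pgam2, a glycolytic enzyme of muscle, fell by 1.10 (adjusted p = 0.0114). Among 8 regulators and satellite cell genes 2 were tested and both rose. Chrna1, a subunit of the acetylcholine receptor at the nerve contact of muscle, was at 0.0968 to 10.3 FPKM in allografts and at most 0.0521 in cultures, 3 of which were at 0 (difference 1.66, limma adjusted p = 0.0118). Mef2c, a transcription factor of muscle that macrophages and endothelium also make, rose by 2.77 (adjusted p = 1.02e-06), and the macrophage and endothelial lists rose with it, whose part in this was not tested.

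A pair of ratios of muscle genes within each library differed between cultures and allografts. These ratios were chosen after the values had been seen and are given with no test. Myh4 stood at 3.75 to 10.4 times the level of Myh1, the myosin of the next fastest fibres, in the 6 cultures, with a median of 5.58. In the 10 allografts the ratio was 0.0399 to 1.79 with a median of 0.373, and in the 6 allografts with at least 1 FPKM of Ckm it was 0.214 to 1.79. Ckm stood at 5.60 to 11.5 times the level of Des in cultures and at 0.0381 to 2.02 times in allografts. For neither ratio did cultures and allografts overlap, although the levels of Myh4 and Ckm themselves did. In the cultures Myh1 was at 0.137 to 1.60 FPKM and Des at 0.331 to 2.08, and only CRC culture 3 reached 1 FPKM of either. Both ratios therefore rest on low values there, and how often ratios of other gene pairs fail to overlap was not computed. Desmin is also made by smooth muscle cells, and of the 9 tested genes of smooth muscle and pericytes 4 rose and 1 fell in allografts, whose part in the second ratio was not tested. Among the fat genes Plin1 stood at 0.179 to 0.333 times the level of Adipoq in cultures. It was at 0.0240 to 0.0859 times in the 7 allografts with at least 1 FPKM of Adipoq, and of all 10 allografts only CRC allograft 1, at 0.312, lay within the range of the cultures. Plin1 was under 1 FPKM throughout, so this ratio rests on low values too. For a further pair of fat ratios cultures and allografts overlapped: the ratio of Cidec to Adipoq was 0.469 to 0.735 in cultures and 0.543 to 1.08 in allografts, and that of Cfd, the fat cell factor adipsin, to Adipoq was 1.81 to 4.34 and 1.87 to 9.98.

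**Figure D3:**
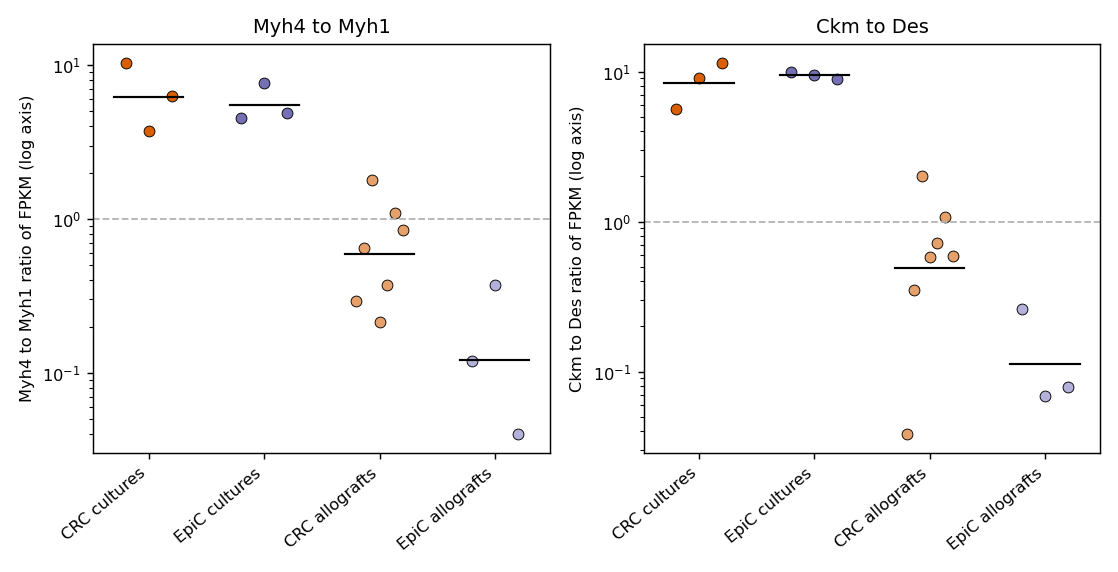
Ratio of Myh4 to Myh1 (left) and of Ckm to Des (right) in each library of the first table, from FPKM, on log axes; each point is a library, each bar the geometric mean of its group, and the dashed line a ratio of 1. All cultures lie above all allografts in both panels, with the lowest culture at 3.75 and 5.60 and the highest allograft at 1.79 and 2.02.

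Within the fat genes the allografts varied together, except for Fabp4. Across the 10 allografts, log2(FPKM + 1) of Adipoq and Cidec correlated with r = 0.986 (permutation p = 3e-05, adjusted p = 0.0003) and rho = 0.964 (permutation p = 6e-05, adjusted p = 0.0018), and r was 0.977 without the 2 allografts farthest from the median of Adipoq. Adipoq and Lpl correlated with r = 0.909 (permutation p = 0.0008, adjusted p = 0.00343) and rho = 0.952 (permutation p = 0.00021, adjusted p = 0.00198), with 0.818 without the 2 farthest. Adipoq and Fabp4 gave r = 0.367 (permutation p = 0.306, adjusted p = 0.367) and rho = 0.0667 (permutation p = 0.866, adjusted p = 0.947), with 0.117 without the 2 farthest. In all, 30 relations were computed, the p-values were adjusted over them, and both p-values are two-sided.

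Fabp4 was instead ordered much as Pecam1 was in the 7 CRC allografts, with r = 0.839 (exact permutation p = 0.0246, adjusted p = 0.0434) and rho = 0.929 (exact permutation p = 0.00675, adjusted p = 0.0169), and 0.814 without the 2 farthest. The Brca1hom allografts were the lowest of the 7 in both genes, at 21.5 to 112 FPKM of Fabp4 and 12.1 to 28.5 of Pecam1. The permutations did not hold genotype fixed, and its part in this order was not tested. Over all 10 allografts the same pair gave r = 0.595 (permutation p = 0.0558, adjusted p = 0.0881) and rho = 0.697 (permutation p = 0.0295, adjusted p = 0.0553), with 0.386 without the 2 farthest. Lpl and the macrophage gene Lyz2 gave r = −0.0283 over the 10 allografts (permutation p = 0.938, adjusted p = 0.938) and rho = 0.0303 (permutation p = 0.947, adjusted p = 0.947), with −0.687 without the 2 farthest.

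The muscle genes also varied together in allografts, and 1 pair of a muscle and a fat gene was set beside them. Ckm and Acta1 correlated with r = 0.946 over the 10 allografts (permutation p = 1e-05, the smallest that the 100000 resamples can give, adjusted p = 0.0003) and rho = 0.903 (permutation p = 0.00068, adjusted p = 0.00291), with 0.931 without the 2 farthest. Ckm and Mb gave r = 0.937 (permutation p = 0.0002, adjusted p = 0.0012) and rho = 0.818 (permutation p = 0.00626, adjusted p = 0.0169), with 0.856 without the 2 farthest. Over the 7 CRC allografts Ckm and Mb were weaker, with r = 0.9035 (exact permutation p = 0.00933, adjusted p = 0.0187), rho = 0.786 (exact permutation p = 0.048, adjusted p = 0.0847) and 0.4915 without the 2 farthest. Ckm and Adipoq gave r = 0.202 (permutation p = 0.583, adjusted p = 0.648) and rho = 0.103 (permutation p = 0.784, adjusted p = 0.904), with 0.501 without the 2 farthest. In the 7 CRC allografts alone that pair gave r = 0.479 (exact permutation p = 0.294, adjusted p = 0.367) and rho = 0.214 (exact permutation p = 0.662, adjusted p = 0.794), with 0.699 without the 2 farthest. CRC allograft 1 had 73.2 FPKM of Acta1 with the lowest Adipoq of all libraries, and EpiC allograft 5A had the lowest Acta1 with 7.08 FPKM of Adipoq. CRC allograft 10C was the highest in both.

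In the cultures Adipoq and Ckm had the same order. Adipoq and Ckm correlated over the 6 cultures with r = 0.945 (exact permutation p = 0.00139, adjusted p = 0.00417) and rho = 1.0 (exact permutation p = 0.00278, adjusted p = 0.00926), and r was 0.782 without the 2 farthest. Within the fat genes, Adipoq and Cidec gave r = 0.990 (exact permutation p = 0.00278, adjusted p = 0.00641), rho = 0.943 (exact permutation p = 0.0167, adjusted p = 0.0333) and 0.9685 without the 2 farthest. Adipoq and Car3 gave r = 0.988 (exact permutation p = 0.00278, adjusted p = 0.00641), the same rho and 0.9865 without the 2 farthest. Between muscle genes, Ckm and Acta1 gave r = 0.816 (exact permutation p = 0.0514, adjusted p = 0.0856), rho = 0.829 (exact permutation p = 0.0583, adjusted p = 0.0875) and −0.0487 without the 2 farthest. Ckm and Mb gave r = 0.683 (exact permutation p = 0.142, adjusted p = 0.213), rho = 0.829 (exact permutation p = 0.0583, adjusted p = 0.0875) and −0.288 without the 2 farthest, so those relations rest on the cultures left out. Ckm and Myh4 gave r = 0.870 (exact permutation p = 0.0125, adjusted p = 0.0234), rho = 0.829 (exact permutation p = 0.0583, adjusted p = 0.0875) and 0.479 without the 2 farthest. Whether the value for Adipoq and Ckm differs from that in allografts was not tested, and no correlation with EpiC culture 3 alone left out was computed. Both genes were highest in CRC culture 3 and lowest in EpiC culture 2. Steps between low values show that 1 fragment was worth 2.71 times as much in CRC culture 3 as in CRC culture 1, and 0.812 times in EpiC culture 2, so by this estimate the culture with the highest Adipoq and Ckm had the fewest fragments of the 6. The worth was 1.01 in EpiC culture 1, 1.10 in CRC culture 2 and 1.47 in EpiC culture 3, but in these cultures no more than 14.64% of low genes shared the commonest step. The estimates are coarse, and the part of depth in the order was not tested. Lpl went the other way from Adipoq in cultures, with r = −0.604 (exact permutation p = 0.194, adjusted p = 0.254), rho = −0.543 (exact permutation p = 0.297, adjusted p = 0.405) and −0.472 without the 2 farthest.

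**Figure D4:**
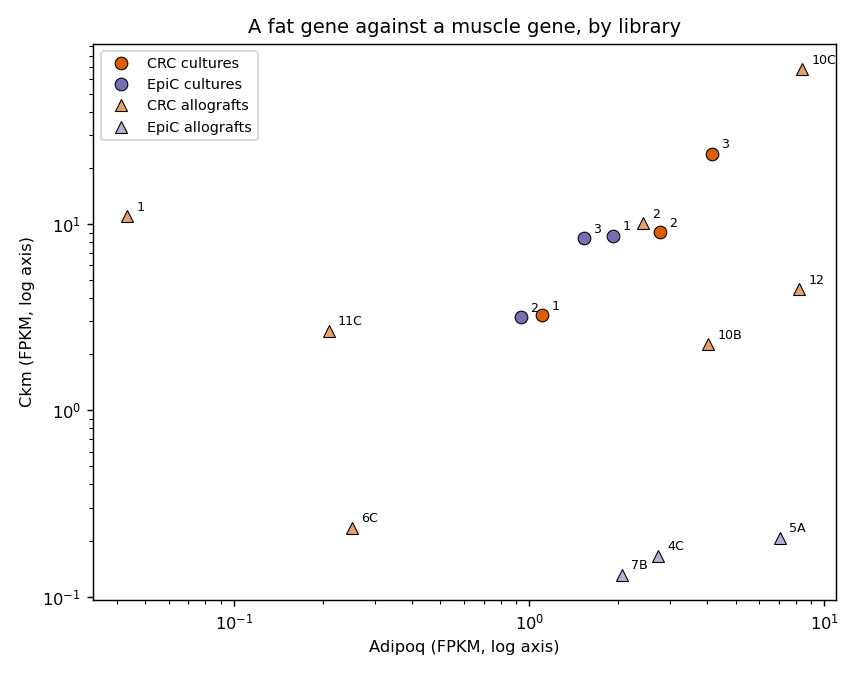
Adipoq against Ckm in FPKM on log axes, for the 6 cultures (circles) and 10 allografts (triangles) of the first table, each labelled with its number. The cultures have the same order in both genes, from EpiC culture 2 (0.935 and 3.16) to CRC culture 3 (4.17 and 23.9). The allografts are spread over the plane, with the 3 EpiC allografts at 0.131 to 0.208 FPKM of Ckm.

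The genes most like each set in the allografts were taken by a fixed rule, as the 8 with the highest correlation over the 10 allografts among 11990 genes. With the mean of Adipoq, Plin1 and Cidec as reference, the likest were Cfd (r = 0.987) and Retn, the fat cell hormone resistin (r = 0.968). Next came Cma1, the chymase of mast cells (r = 0.936), Tpsb2, a mast cell tryptase (r = 0.906), and Cpa3, the mast cell carboxypeptidase (r = 0.903), followed by Gng8, Serping1 and Dpep1 (r = 0.902 to 0.897). Cma1 ranged from 0.0766 to 17.6 FPKM in allografts, Tpsb2 from 0.227 to 29.3 and Cpa3 from 0.179 to 13.7. In cultures these 3 were at most 0.233 FPKM, while Cfd was at 2.005 to 16.7 and Retn at 0.398 to 2.95. The cultures therefore held the fat cell genes at levels of the allografts without the mast cell genes that varied with them there.

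With the mean of Acta1, Ckm, Myh4 and Mb as reference, the 8 likest genes were Tnnc2 (r = 0.991), Tnnt3 (r = 0.981), Mylpf (r = 0.974), Klhl41 (r = 0.972), Myh1 (r = 0.970), Csrp3 (r = 0.965), Myl1 (r = 0.964) and Ankrd2 (r = 0.961). Tnnc2 and Tnnt3 are troponins of fast fibres, Mylpf and Myl1 are fast myosin light chains, and Csrp3 and Ankrd2 are stretch-sensing proteins of the sarcomere. Csrp3 reached 9.06 FPKM in allografts and at most 0.564 in cultures, and Ankrd2 reached 4.92 and at most 0.332, whereas Tnnc2 was at 1.74 to 20.3 in cultures and at 0.226 to 54.1 in allografts. These correlations are descriptions over libraries that share references with the members and carry no test.

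The differences of all 4 muscle genes between CRC and EpiC allografts were positive, and none passed the test. Of 9 genes tested, 0 were called and 2 had an unadjusted p under the threshold (limma, genotype in the model), where 0.00833% of 11999 genes were called and 1011 had such a p. Acta1 differed by 3.05 (SE 1.03, limma adjusted p = 0.480), Mb by 1.74 (SE 0.74, adjusted p = 0.567), Ckm by 2.14 (SE 1.00, adjusted p = 0.601) and Myh4 by 1.29 (SE 0.83, adjusted p = 0.692). The values of Ckm did not overlap between the 7 CRC and the 3 EpiC allografts, though CRC allograft 6C, the only CYP19A1 one, was at 0.235 FPKM against 0.208 in EpiC allograft 5A. The other 9 genes overlapped, and 2.38% of the 11999 genes did not. Within CYP19A1, only Ckm of the 4 muscle genes was higher in 6C than in EpiC allograft 7B (0.235 against 0.131 FPKM). In 6C Acta1 (0.425 against 0.461), Myh4 (0.0581 against 0.0587) and Mb (0.0854 against 0.239) were lower. Brca1hom had CRC allografts only. All 9 tested fast fibre genes and all 11 tested shared sarcomere genes also had positive differences, with medians of 1.41 and 0.88 beside 0.02 over all genes, and none of them was called. Other lists were mixed. Differences were positive for 9 of 9 endothelial genes (median 0.71), 8 of 10 fibroblast genes (1.04) and 7 of 8 smooth muscle and pericyte genes (0.87). They were positive for only 1 of 10 macrophage genes (−0.25), 4 of 14 other fat genes (−0.20) and 0 of 6 mammary epithelial genes (−0.86). The part of these lists in the muscle differences was not tested. Of the 5 fat genes tested 4 had negative differences, from −0.33 to −0.74, and Fabp4 was at 0.24.

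The effect of state was not shown to depend on the medium for any of the genes. For the interaction of medium and state 0 of 9 were called and 0 had an unadjusted p under the threshold (limma), while 12.2% of 12325 genes were called and 3229 had such a p. The term was 1.69 for Lpl (SE 0.98, limma adjusted p = 0.304) and 1.64 for Ckm (SE 1.33, adjusted p = 0.479), and without EpiC culture 3 it was 1.16 and 1.79.

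Between the cultures, 3 of the 10 genes did not overlap by medium: Acta1 and Mb were above in all CRC cultures and Lpl in all EpiC cultures. The same lack of overlap held for 50.4% of the 11837 genes compared. None of the 9 tested genes was called, 3 had an unadjusted p under the threshold (limma, genotype in the model), and 23.2% of 11837 genes were called, with 4998 at such a p. Acta1 differed by 2.03 (SE 0.53, limma adjusted p = 0.0569), Mb by 1.34 (SE 0.40, adjusted p = 0.0772) and Lpl by −2.16 (SE 0.66, adjusted p = 0.0793). Acta1 was called without CRC culture 1 (2.77, limma adjusted p = 0.0378) and without EpiC culture 1 (adjusted p = 0.0346), and without EpiC culture 3 the differences of Acta1, Mb and Lpl were 1.53, 0.92 and −1.23. Among the other fat genes Pparg, the master regulator of fat cells, was at 12.3 FPKM in EpiC culture 3, at 2.78 and 1.80 in EpiC cultures 1 and 2, and at 0.143 to 1.29 in the CRC cultures. Fibroblast genes moved with the medium too: 8 of 10 were lower in CRC cultures, and their summed level was 52.4 to 73.0 FPKM there and 3857 to 6505 in EpiC cultures. Their part in the Lpl and Pparg levels was not tested.

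Brca1 genotype showed no called difference in these genes. Between the 3 Brca1hom and 3 Brca1het CRC allografts 0 of 9 were called and 1 had an unadjusted p under the threshold (limma), with 0% of 11928 genes called and 1246 at such a p. Fabp4 was that gene, at 21.5, 54.0 and 112 FPKM in Brca1hom allografts 1, 2 and 12 and at 119, 119 and 150 in Brca1het allografts 10B, 10C and 11C (difference −1.32, SE 0.54, limma adjusted p = 0.458). The summed endothelial level in those Brca1hom allografts was 78.2 to 146 FPKM and in the Brca1het ones 144 to 222, and its part in the Fabp4 values was not tested. With 10B and 10C, which share a number, taken as 1 sample, the differences of Adipoq, Car3 and Lpl changed sign. They were then 0.12, 0.09 and 0.14, and none was called.

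Of the 6 fat genes, 4 were at or near 0 in the cancers and their cultures. Plin1 and Cidec were listed at 0 in all 6 libraries of the second table. Adipoq was at 0.0341 FPKM in primary cancer 2 and listed at 0 in the other 5 libraries, and Car3 was at 0.0793 there, at 0.0193 in the EpiC culture of cancer 2 and listed at 0 in the other 4. Cfd was at 0.0670 and 0.0485 FPKM in primary cancers 1 and 2 and listed at 0 in the 4 cultures. The wider fat list was not at 0: 14 of its 25 genes passed the filter for testing, and none was called in the 3 comparisons. Adig, a small membrane protein of fat cells also called adipogenin, was at 46.9 FPKM in primary cancer 1 and at 0.737 in primary cancer 2, and was singled out after its value was seen, as was Gpd1, a glycerol phosphate dehydrogenase, at 17.5 FPKM in primary cancer 1.

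Fabp4 was the most abundant of the 6 fat genes in each of these libraries. It was at 17.5 and 37.9 FPKM in primary cancers 1 and 2, at 8.03 and 8.94 in the CRC cultures of cancers 1 and 2, and at 0.901 and 0.761 in the EpiC cultures. Both cancers were above both CRC cultures, which were above both EpiC cultures, so that 1 of the 10 genes did not overlap between cancers and cultures, as was so for 19.3% of the 12266 genes. The difference was 1.501 against CRC cultures (SE 0.59, limma adjusted p = 0.635) and 3.87 against EpiC cultures (adjusted p = 0.0502), and 2.37 between the kinds of culture (adjusted p = 1). With a pseudocount of 0.1 the difference against EpiC cultures was 4.80 and passed (adjusted p = 0.0376). Only 3 of the 10 genes reached the mean needed for the test. In each of these 3 comparisons 0 of them were called and 1 had an unadjusted p under the threshold, where 0.889%, 0.677% and 0.00815% of 12266 genes were called and 861, 834 and 200 had such a p.

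Pecam1 was at 9.47 and 14.1 FPKM in the cancers and at most 0.202 in the cultures, and Lyz2 at 365 and 703 against at most 1.07. Those cells' part in the Fabp4 level of the cancers was not tested. In the CRC cultures of the cancers Fabp4 was present with Pecam1 at 0.202 and 0.0393 FPKM and Cdh5 at 0.00956 and 0.0421. Lpl was at 0.440 and 0.992 FPKM in the cancers, at 0.583 and 3.11 in the CRC cultures and at 0.0128 and 0.133 in the EpiC cultures, and was highest in a culture.

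Among the muscle genes Mb and Acta1 were present in the second table and Ckm and Myh4 were near 0. Myh4 was at 0.0360 FPKM in primary cancer 2 and listed at 0 in the other 5 libraries, and Ckm was at most 0.202. Mb was at 16.9 and 2.70 FPKM in cancers 1 and 2, at 4.42 and 8.66 in the CRC cultures and at 0.773 and 11.0 in the EpiC cultures. Acta1 was at 0.0757 and 8.23 in the cancers, at 0.0850 and 2.18 in the CRC cultures and at 0.231 and 3.74 in the EpiC cultures. All 3 libraries of cancer 2 held more Acta1 than any of cancer 1, whereas Mb followed neither the cancer nor the kind of sample. Neither gene was called in the 3 comparisons, with limma adjusted p of 0.898 for Acta1 and 0.980 for Mb between cancers and CRC cultures. Mb thus appeared at several FPKM in libraries where Ckm and Myh4 were at or near 0.

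**Figure D5:**
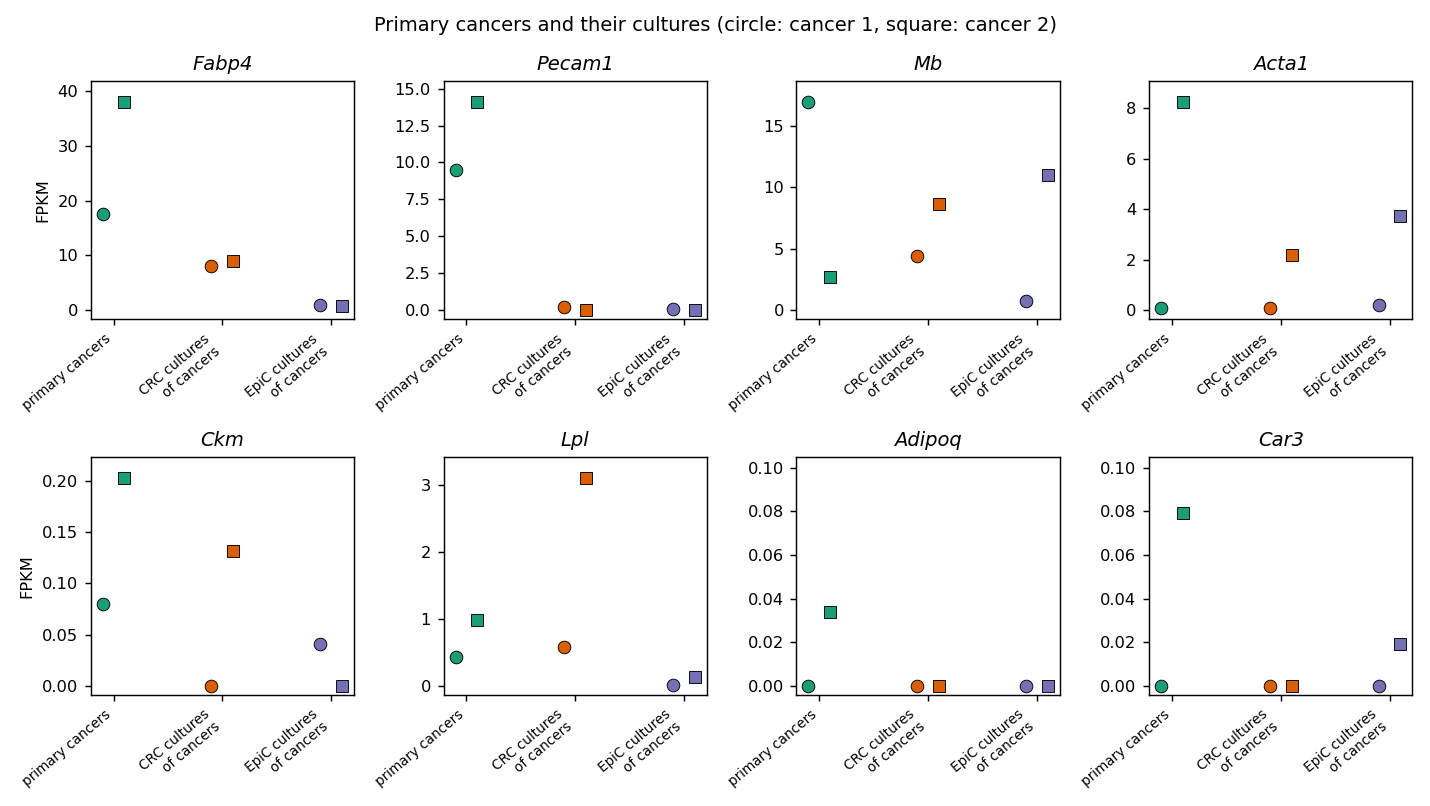
FPKM of Fabp4, Pecam1, Mb, Acta1, Ckm, Lpl, Adipoq and Car3 in the 2 primary cancers, their 2 CRC cultures and their 2 EpiC cultures; circles are cancer 1 and squares cancer 2, and each panel has its own linear axis. Fabp4 falls from 17.5 and 37.9 in the cancers to 0.901 and 0.761 in the EpiC cultures, Mb reaches 11.0 in an EpiC culture, and Adipoq and Car3 stay under 0.1.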

How the data were processed

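Poly(A) RNA of 22 mouse libraries was sequenced on paired ends from TruSeq libraries, per the labels' protocols. The authors deposited FPKM values in 2 tables. Reads were processed with FastQC, Trim Galore, TopHat and Cufflinks on mouse build mm9, per the submitters' processing notes; no source used here states versions, the annotation or how libraries were scaled to each other. FPKM hides the depth of sequencing, so no counting interval is given. Entries that shared a symbol in the smaller table (407 entries, 162 symbols) were summed, none of them a gene described here. The tables were normalised separately, and each test stayed within 1 table.

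Tests used limma 3.58.1 in R 4.3.3 (lmFit, eBayes with a trend) on log2(FPKM + 1) for genes averaging 1 FPKM or more over the fitted libraries, with Benjamini-Hochberg adjustment over all of them and a call at an adjusted p under 0.05. Differences are on that scale, which understates changes of low genes. Genotype was a term in the first table except between Brca1 genotypes, and medium was a term between allografts and cultures. The code was tested on simulated data. Relations used exact permutations for up to 7 libraries and 100000 resamples above.

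The 10 genes, 16 gene lists and alternatives were chosen with earlier results of these data known. Named genes are the 10, up to 3 called genes of a list, the 8 likest genes to each set, and marker genes of endothelium and macrophages; others were picked with values in view. The titles give 1 number to each cancer and its cultures, so the numbers pair those libraries; deviations of same-numbered libraries correlated at −0.0555 (cancers and CRC cultures), −0.113 (cancers and EpiC cultures) and 0.242 (both cultures) over 12266 genes. Alternatives were another pseudocount or filter, rescaling by median ratios, other models, the replicate block and leaving out each library. A further one took CRC allografts 10B and 10C as 1 sample. Their titles share the number 10, and the main fits and the correlations count them as separate.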

Additional observations from a re-analysis of the deposited data

Results flagged for a closer look

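CRC allograft 10C stood apart from the other 6 CRC allografts in all 4 muscle genes, by the gap to its nearest neighbour as a share of the whole range (critical value 0.568 for 7 libraries). Acta1 was at 206.6 FPKM there and at 73.2 in the next library, a gap of 0.647 of the range on linear FPKM. Ckm was at 67.7 FPKM against 11.0 (0.840), Myh4 at 22.6 against 3.73 (0.837) and Mb at 23.2 against 8.03 (0.657). On log2(FPKM + 1), the scale of the tests, the gaps were 0.206, 0.433, 0.518 and 0.318 for Acta1, Ckm, Myh4 and Mb, all under the critical value. Chance flags about 1 in 20 groups of normally distributed values, and whether linear FPKM meets that condition was not tested. The 4 genes are also not independent, since they varied together across the allografts. The fat genes of this library were not flagged: its Adipoq of 8.40 FPKM lay beside 8.21 in CRC allograft 12.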

How the results depend on the processing

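The number of tested genes called between allografts and cultures was 1, and was 2 with a pseudocount of 0.1 (Ckm joined Lpl, at −2.47, limma adjusted p = 0.0389). When each library was left out, calls over all genes ran from 2969 to 4706. The number of tested genes called then ran from 0 (without CRC culture 1) to 4 (without CRC allograft 10C). Between primary cancers and EpiC cultures it went from 0 to 1 with a pseudocount of 0.1, and between CRC and EpiC cultures from 0 to 1 when a library was left out. No other count of called members moved. Of 804 values of single genes under alternatives, 747 kept their direction and side of the threshold, 49 changed sign without being called, 7 passed the threshold anew and 1 lost it. With the cancer as a replicate block, 0 of the 3 tested genes were called in each of the 3 comparisons of the second table, so the pairing changed no call there, while calls over all genes went from 109 to 58, from 83 to 29 and from 1 to 0. Calls over all genes also moved by over 1.5 times elsewhere: from 2741 to 1658 with no filter and 159 to 2091 with a library left out between CRC and EpiC cultures, from 1506 to 1000 with a filter at 5 FPKM and 760 to 2243 with a library left out for the interaction, from 1 to between 0 and 47 between CRC and EpiC allografts, from 0 to as many as 26 between Brca1 genotypes, from 109 and 83 to between 0 and 284 for the cancers, and from 1 to between 0 and 12 between their cultures; the causes were not tested. Leaving out 1 of 2 libraries of a group assumes that the lone one varies like the others. Depth is not known from FPKM, so differences in genes under 1 FPKM were not detectable with confidence.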
